A study of Mus musculus with 12 samples.

Results

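The 61 genes described here encode collagen chains, laminin chains and 6 other matrix proteins. They were taken by name from the 35976 gene names of each file: every Col gene of the numbered collagens, every Lama, Lamb and Lamc gene, and Nid1, Nid2, Hspg2, Fn1, Tnc and Sparc. The RNA came from A2lox.cre mouse embryonic stem cells carrying a doxycycline-inducible RUNX1-EVI1 gene, a leukaemia-associated fusion of the transcription factor RUNX1 with EVI1, the zinc finger protein encoded by Mecom. Embryoid bodies of 3.25 days were dispersed, FLK1+ cells were purified on magnetic columns, and after 1 day of culture in D4T-conditioned medium with VEGF and IL-6 the cells received 0.5 µg/ml doxycycline (PlusDox) or none (NoDox) for a further 18 hours. They were then sorted into 3 populations, labelled hemogenic endothelial 1 (HE1), hemogenic endothelial 2 (HE2) and hematopoietic progenitor (HP). The 6 groups were PlusDox HE1, NoDox HE1, PlusDox HE2, NoDox HE2, PlusDox HP and NoDox HP, each with 2 biological replicates. PlusDox and NoDox cells carried the same construct, and every group had passed through the same feeder-grown and neomycin-selected stem cell culture. The labels do not say whether 1 or several stem cell colonies were used, nor which surface markers set the sort gates, and no group that received doxycycline without the construct was analysed here.

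Endothelial cells lie on a basement membrane, a thin sheet built from a laminin polymer and a collagen IV network that nidogens and the proteoglycan perlecan tie together. Laminins are trimers of an alpha, a beta and a gamma chain, and the common collagen IV molecule holds both alpha1 and alpha2 chains. Endothelium is known for laminins with the alpha4 or alpha5 chain, while fibrillar collagens are typical products of mesenchymal cells. Blood cells arise from hemogenic endothelium by rounding up and leaving the vessel wall, a process called the endothelial-to-hematopoietic transition.

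RNA levels are given in FPKM, which scales the fragments of a gene by its transcript length and by the depth of the library and so allows genes to be compared with each other. Of the 61 genes, 31 reached 1 FPKM in at least 2 of the 12 libraries and were tested, and the other 30 stayed below 1 FPKM in every library. The tested genes were 7 of 11 fibrillar collagens, 4 of 6 collagen IV chains, both multiplexins, 4 of 5 laminin alpha chains, 2 of 3 laminin beta chains, 1 of 3 laminin gamma chains, all 3 basement membrane linkers (Nid1, Nid2 and Hspg2), and Fn1, Tnc and Sparc. Collagen VI (1 of 6), the fibril-associated collagens (2 of 9), the transmembrane collagens (1 of 4) and the short-chain collagens (1 of 3) were represented thinly, and none of the 3 other collagens was tested. The untested genes included Col2a1, the cartilage collagen (at most 0.181 FPKM), and Lama2, the muscle laminin chain (at most 0.00528 FPKM). Col28a1, Col9a1 and Col6a5 were listed at 0 in all 12 libraries.

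Because Col4a1 and Col4a2 changed together and Col11a1 and Col8a1 were the genes called with doxycycline, the start regions of these 4 genes are shown first. Each run covers 250 bases before and 50 after the annotated start, 5′ to 3′ on the gene's own strand, from RefSeq on build GRCm38.p6 (mm10). Capitals mark TGTGGT, the core letters bound by RUNX proteins, the GC box GGGCGG and the CCAAT box, each on either strand. The windows are chr8:11312777-11313076 (minus strand) for Col4a1, chr8:11312555-11312854 (plus strand) for Col4a2, chr3:114030290-114030589 (plus strand) for Col11a1 and chr16:57754688-57754987 (minus strand) for Col8a1.
Col4a1: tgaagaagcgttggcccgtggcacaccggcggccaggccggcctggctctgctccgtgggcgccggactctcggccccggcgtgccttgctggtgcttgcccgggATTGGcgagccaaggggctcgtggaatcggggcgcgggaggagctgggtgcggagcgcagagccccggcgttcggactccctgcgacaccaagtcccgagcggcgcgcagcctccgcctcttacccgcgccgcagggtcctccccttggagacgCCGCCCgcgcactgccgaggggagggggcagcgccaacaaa
Col4a2: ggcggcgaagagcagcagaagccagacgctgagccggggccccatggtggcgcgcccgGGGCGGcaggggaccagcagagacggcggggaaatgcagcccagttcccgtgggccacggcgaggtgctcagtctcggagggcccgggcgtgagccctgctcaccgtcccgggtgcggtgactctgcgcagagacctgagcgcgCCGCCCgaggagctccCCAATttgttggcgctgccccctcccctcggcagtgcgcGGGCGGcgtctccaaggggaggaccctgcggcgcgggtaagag
Col11a1: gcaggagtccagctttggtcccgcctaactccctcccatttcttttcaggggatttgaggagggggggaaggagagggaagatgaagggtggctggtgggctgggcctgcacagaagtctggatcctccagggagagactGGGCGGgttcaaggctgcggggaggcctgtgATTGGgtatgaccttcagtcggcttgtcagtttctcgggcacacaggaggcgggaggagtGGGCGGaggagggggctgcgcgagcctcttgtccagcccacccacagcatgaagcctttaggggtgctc
Col8a1: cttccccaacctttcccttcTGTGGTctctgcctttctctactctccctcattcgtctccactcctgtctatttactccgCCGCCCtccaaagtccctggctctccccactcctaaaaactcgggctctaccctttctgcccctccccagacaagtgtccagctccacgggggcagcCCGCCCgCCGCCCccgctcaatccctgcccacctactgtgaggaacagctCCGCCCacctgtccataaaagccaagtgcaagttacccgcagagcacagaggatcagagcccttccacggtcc
Col4a1 and Col4a2 run head to head, with the annotated starts used for the windows 21 bases apart, so that their windows share 78 bases. The annotated gene spans overlap by 85 bases, because the Col4a1 span reaches 11312889, past the start at 11312826 used for its window. For Col11a1 too, the start used for the window (114030540) differs from that of the gene span (114030479). A start window was found for 44 of the 61 genes and for 22 of the 31 tested ones. TGTGGT or its reverse complement lay in the windows of 3 of those 22 genes (Col18a1, Col8a1 and Sparc), and in 16.8% of all 32851 windows of this length. GGGCGG lay in 16 of the 22, against 35.7% of all windows, and CCAAT in 8 of the 22, against 37.4%. The EVI1 letters GACAAGATA were in none of the 22 and in 0.119% of all windows, and the GATA letters AGATAA were in none of the 22 and in 11.2% of all windows. These are matches of letters on both strands and were not tested for binding. The 22 are tested genes, each counted once, while the shares count windows of all genes, tested here or not. A share over the windows of tested genes was not taken, so a difference from these shares cannot be assigned to matrix genes.

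A few genes made up most of the matrix RNA. The 61 genes together held 0.754% and 0.542% of the summed FPKM in PlusDox HE1 (replicate 1 first, as throughout), against 0.523% and 0.700% in NoDox HE1. In HE2 the shares were 0.381% and 0.381% with doxycycline and 0.271% and 0.433% without. In HP they were 0.106% and 0.0827% with doxycycline and 0.0648% and 0.0576% without, below every HE library. The 5 genes with the highest levels in a library held 72.7% to 86.2% of this sum. Averaged over the 12 libraries, the order of levels was led by Fn1 (479 FPKM), Col18a1 (367 FPKM), Col4a1 (280.5 FPKM), Sparc (187 FPKM) and Col4a2 (158 FPKM), followed by Hspg2, Nid1, Lamc1, Lamb1, Lama4, Nid2 and Lamb2.

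**Figure D1:**
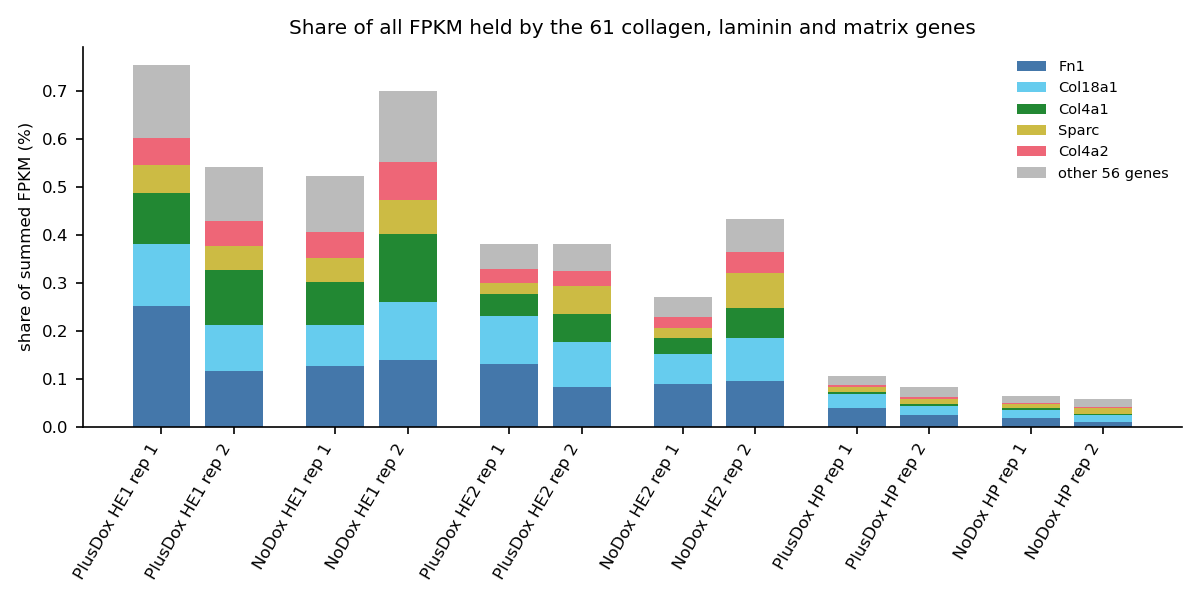
Share of the summed FPKM (y axis, percent) held by the 61 genes in each of the 12 libraries (x axis), with Fn1, Col18a1, Col4a1, Sparc and Col4a2 in colour and the other genes in grey. The PlusDox HP bars (0.106% and 0.0827%) and NoDox HP bars (0.0648% and 0.0576%) are lower than all 8 HE bars.

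The libraries fell into 2 classes by a technical measure that touches the comparisons. Lars2, Mir6236 and LOC101056014 together took 8.81% to 16.9% of the summed FPKM in 5 libraries (replicate 2 of PlusDox HE1, PlusDox HE2 and both HP groups, and replicate 1 of NoDox HE1) and 0.355% to 0.591% in the other 7. NoDox HE2 had no library of the first class. Between 11461 and 12174 genes reached 1 FPKM per library. Relative depth, read from the steps of low values, was settled for 10 libraries and ran from 0.580 to 1.59 times the median library, while absolute depth is unknown. Mecom, whose zinc fingers the fusion carries, stood at 5.18 and 5.51 FPKM in PlusDox HP against 0.194 and 0.205 FPKM in NoDox HP, and at 18.4 and 20.2 FPKM in PlusDox HE2 against 6.08 and 13.9 FPKM in NoDox HE2. In HE1 it overlapped, at 23.0 and 18.1 FPKM with and 17 and 28.3 FPKM without doxycycline, and the files do not separate the cells' own Mecom from the fusion. Hprt, the locus at which A2lox cells take up the inducible gene, stood at 19.4 to 82.4 FPKM in the PlusDox libraries and 1.45 to 7.04 FPKM in the NoDox libraries, which goes with the labels.

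Most of the abundant basement membrane genes were lower in HP than in HE2, and a smaller number were called lower in HE2 than in HE1. With HP set against HE2, 17 of the 31 tested genes were called lower with doxycycline and 15 without it. The 17 included Col11a1 and Col8a1, which passed the filter for testing only through PlusDox HE libraries. None of the 31 was called higher at either step. Calls rest on an adjusted p below 0.05 in limma, fitted on log2(FPKM + 1) over all 12 libraries, with p adjusted over the 13316 genes tested. Of all tested genes, 10.9% were called lower in HP than in HE2 with doxycycline and 10.6% without it, and 5.96% and 5.31% were called higher. The median log2 fold change of the 31 genes was −0.73 with doxycycline and −0.73 without, beside −0.01 and −0.06 over all genes. Setting HE2 against HE1, 9 genes were called lower with doxycycline and 10 without, where 2.89% and 4.45% of all genes were, and 5.7% and 5.67% of all genes were called higher. The medians of the 31 genes were −0.62 and −0.47, beside 0.17 and 0.16 over all genes. Scaling the libraries to equal medians brought those 2 medians over all genes to 0.03 and 0.03, a shift of over 0.1. It gave 14 lower calls in each condition. Of all 13316 genes, the scaled fit called 1892 with and 2025 without doxycycline, in either direction. The fits that left out 1 library were not scaled and started from the 9 and 10 calls. These 2 counts rested on single libraries: 3 calls were left with doxycycline without PlusDox HE1 replicate 1 or PlusDox HE2 replicate 1 and 4 without PlusDox HE2 replicate 2, and 1 was left without doxycycline when NoDox HE1 replicate 2 or NoDox HE2 replicate 1 was omitted. Among the 7 libraries low in Lars2, only NoDox HE2 kept both of its libraries, which left 1 residual degree of freedom. The number of calls in that fit thus cannot compare the conditions, and every gene called in the main fit kept its direction. In bulk samples, fewer cells of a type and less RNA per cell cannot be told apart.

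The collagen IV pair, the network-forming chains of basement membranes, showed the widest steps from HE2 to HP. Col4a1 stood at 507 and 584 FPKM in PlusDox HE1, at 271 and 308 FPKM in PlusDox HE2 and at 29.5 and 26.1 FPKM in PlusDox HP. Without doxycycline Col4a1 was at 439 and 666 FPKM in HE1, 192 and 313 FPKM in HE2 and 15.6 and 16.7 FPKM in HP. The 3 populations did not overlap in either condition, and each HP library lay far under each HE2 library. The log2 fold change of Col4a1 in HP against HE2 was −3.33 ± 0.25 (SE, adjusted p = 1.04e-05) with doxycycline and −3.85 ± 0.25 (adjusted p = 2.95e-06) without, by limma. Col4a2 followed the same course, with 271 and 258 FPKM in PlusDox HE1, 168 and 155 FPKM in PlusDox HE2 and 20.6 and 18.5 FPKM in PlusDox HP. Without doxycycline Col4a2 had 263 and 367 FPKM in HE1, 133 and 219 FPKM in HE2 and 8.93 and 12.0 FPKM in HP. Its log2 fold change in HP against HE2 was −2.98 ± 0.25 with doxycycline and −3.91 ± 0.25 without. The ratio of Col4a1 to Col4a2 stayed between 1.39 and 2.26 in all 12 libraries, with a median of 1.64, while each gene varied over more than an order of magnitude. The start windows of the 2 genes printed above share 78 bases, and a part of that stretch in their joint course was not tested. The other tested collagen IV chains, Col4a5 and Col4a6, were far lower, at 4.13 to 10.7 FPKM and 0.981 to 2.55 FPKM, and the only call among them was Col4a5 in PlusDox HP against PlusDox HE2 (4.36 ± 0.30 against 8.06 ± 1.22 FPKM, SD, n = 2 each).

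Perlecan and the nidogens, the linkers of the sheet, followed the same order. Hspg2, which encodes perlecan, stood at 195 and 135 FPKM in PlusDox HE1, 62.3 and 52.0 FPKM in PlusDox HE2 and 9.42 and 10.1 FPKM in PlusDox HP. In NoDox cells Hspg2 was at 157 and 157 FPKM in HE1, 62.3 and 86.1 FPKM in HE2 and 8.30 and 7.15 FPKM in HP. It was called lower at both steps in both conditions. Nid1 had 139 and 130 FPKM in PlusDox HE1, 51.5 and 68.2 FPKM in PlusDox HE2 and 11.0 and 19.3 FPKM in PlusDox HP. In NoDox cells Nid1 had 112 and 153 FPKM in HE1, 31.6 and 66.5 FPKM in HE2 and 6.52 and 11.2 FPKM in HP. The groups of each condition did not overlap, and Nid1 was called at both steps without doxycycline (HE2 against HE1 −1.49 ± 0.36, HP against HE2 −2.29 ± 0.36, log2 ± SE) but only from HE2 to HP with it. That difference between conditions was not called in any test of it. Nid2 had 41.4 and 33.2 FPKM in PlusDox HE1, 20.7 and 22.8 FPKM in PlusDox HE2 and 5.68 and 4.14 FPKM in PlusDox HP. In NoDox cells Nid2 had 23.2 and 41.4 FPKM in HE1, 12.2 and 21.4 FPKM in HE2 and 3.39 and 2.99 FPKM in HP. Nid2 was called lower in HP than in HE2 in both conditions, and from HE1 to HE2 in neither. Nid1 exceeded Nid2 by 1.93 to 4.83 times in every library.

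Col18a1, which encodes collagen XVIII, the precursor of the fragment endostatin, was called at the later step alone. Col18a1 stood at 617 and 490 FPKM in PlusDox HE1, 579 and 489 FPKM in PlusDox HE2 and 161 and 93.2 FPKM in PlusDox HP. In NoDox cells Col18a1 was at 416 and 571 FPKM in HE1, 368 and 447 FPKM in HE2 and 95.6 and 73.5 FPKM in HP. HE1 and HE2 overlapped in both conditions, and HP lay under both (HP against HE2 −2.11 ± 0.28 with and −2.26 ± 0.28 without doxycycline, log2 ± SE). The other multiplexin, Col15a1, did not exceed 1.52 FPKM in any library.

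**Figure D2:**
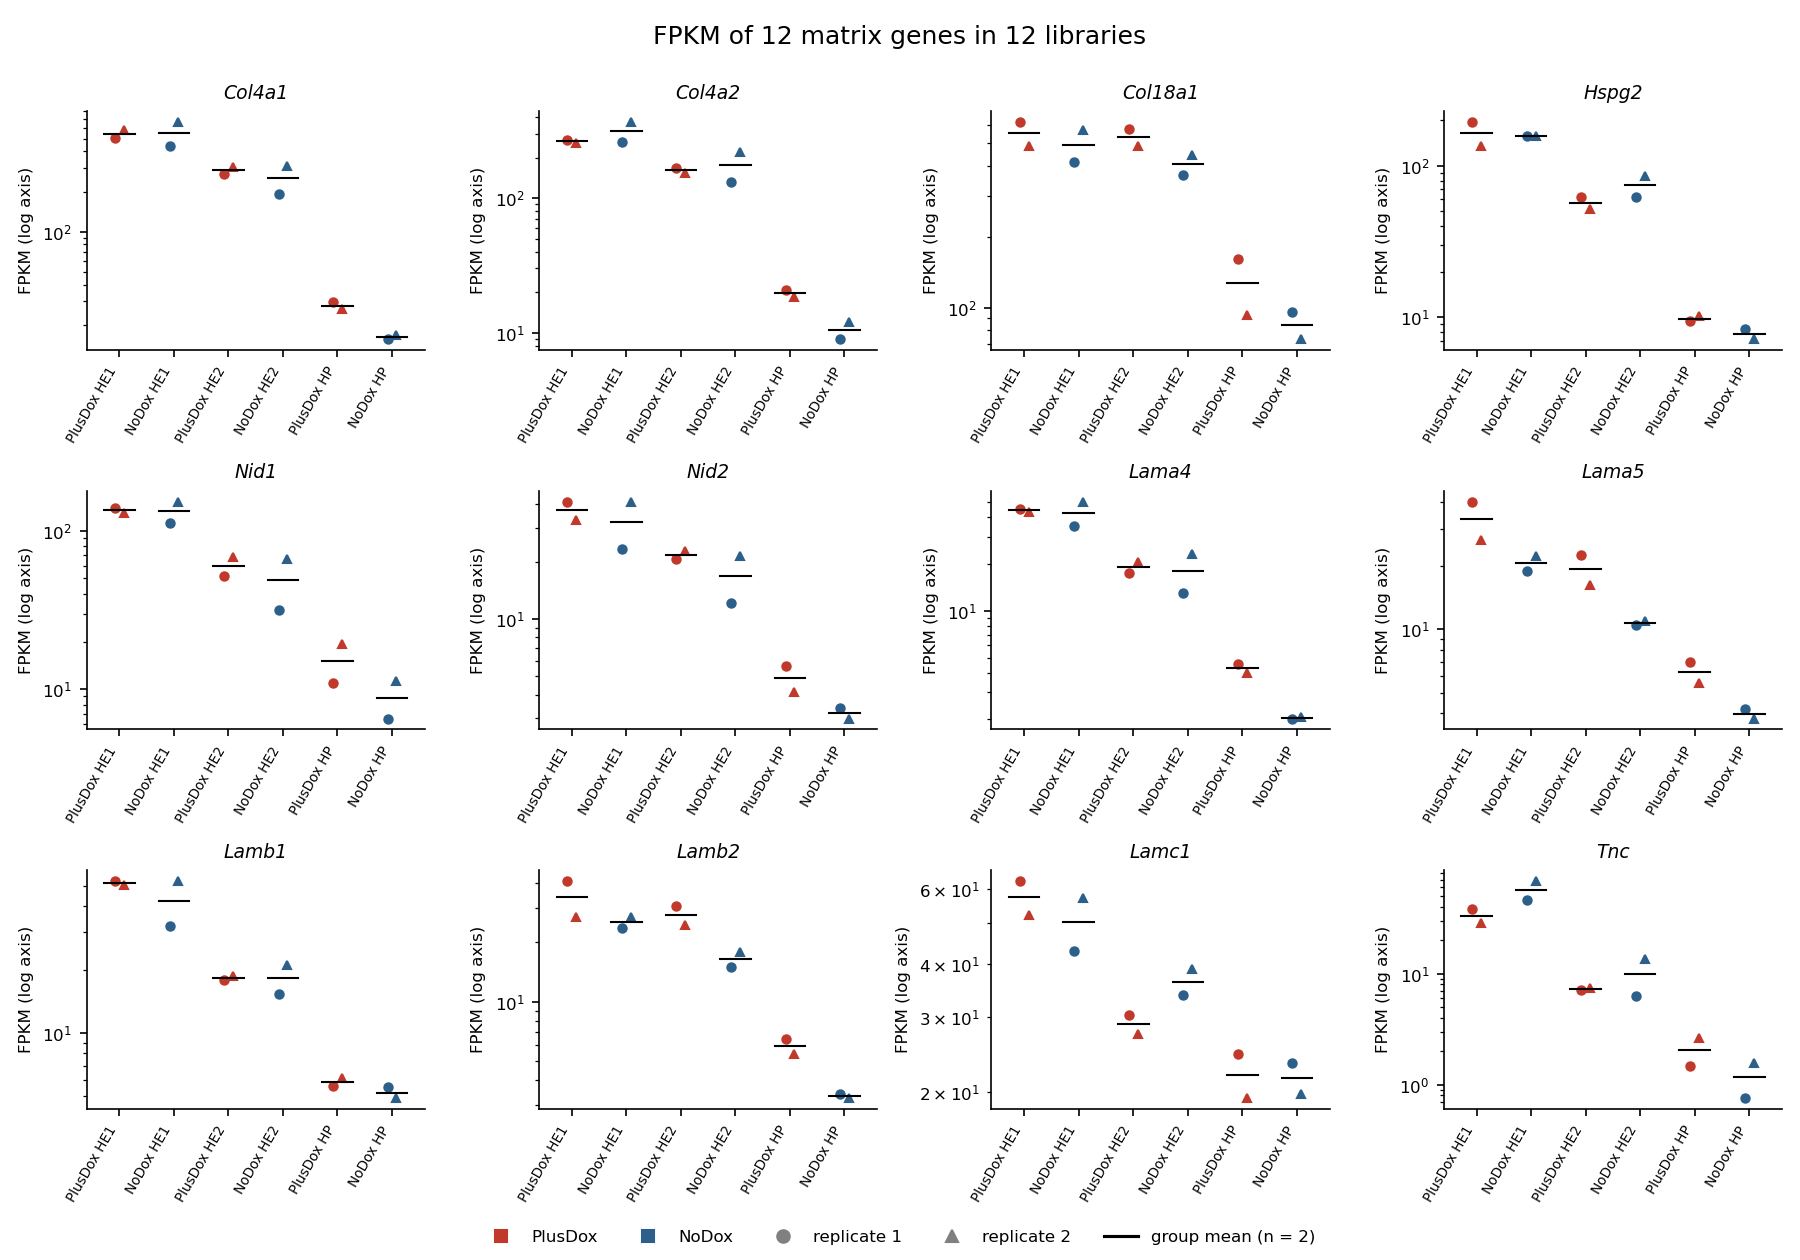
FPKM (log axis) of 12 basement membrane and matrix genes in the 6 groups, one panel a gene; circles are replicate 1, triangles replicate 2 and bars group means. For Col4a1 both PlusDox HP (29.5 and 26.1) and NoDox HP (15.6 and 16.7) points lie far under the HE points, while the Lamc1 points of HP (24.6 and 19.4 with, 23.5 and 19.9 FPKM without doxycycline) lie much nearer to those of HE2.

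Among laminins, the alpha4, alpha5, beta1 and beta2 chains had log2 fold changes of −1.23 to −2.60 in HP against HE2, while Lamc1, the gamma1 chain they assemble with, had −0.39 ± 0.20 with and −0.72 ± 0.20 without doxycycline. That difference between chains was not tested. Lama4, the endothelial alpha4 chain, stood at 45.5 and 43.2 FPKM in PlusDox HE1, 17.7 and 20.7 FPKM in PlusDox HE2 and 4.58 and 3.96 FPKM in PlusDox HP. In NoDox cells Lama4 had 35.1 and 50.7 FPKM in HE1, 13.1 and 23.3 FPKM in HE2 and 2.02 and 2.08 FPKM in HP. Lama4 was called lower at both steps in both conditions, with log2 fold changes between −1.17 and −2.60. Lamb1, the beta1 chain, had 52.6 and 50.4 FPKM in PlusDox HE1, 17.8 and 18.7 FPKM in PlusDox HE2 and 5.58 and 6.12 FPKM in PlusDox HP. In NoDox cells Lamb1 had 32.2 and 52.6 FPKM in HE1, 15.4 and 21.0 FPKM in HE2 and 5.53 and 4.91 FPKM in HP. It too was called at both steps in both conditions. Lamb2, the beta2 chain, was called from HE2 to HP in both conditions and not from HE1 to HE2, with 41.0 and 26.9 FPKM in PlusDox HE1 and 30.6 and 24.5 FPKM in PlusDox HE2, and 6.48 and 5.44 FPKM in PlusDox HP. In NoDox cells Lamb2 had 23.7 and 27.0 FPKM in HE1, 15.0 and 17.9 FPKM in HE2 and 3.38 and 3.24 FPKM in HP. The ratio of Lamb1 to Lamb2 was 1.28 and 1.88 in PlusDox HE1, 0.581 and 0.763 in PlusDox HE2 and 0.861 and 1.12 in PlusDox HP, and 1.36 and 1.95, 1.03 and 1.17, and 1.63 and 1.51 in the NoDox populations in the same order.

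Lamc1, the gamma1 chain, stood at 62.7 and 52.2 FPKM in PlusDox HE1, 30.3 and 27.5 FPKM in PlusDox HE2 and 24.6 and 19.4 FPKM in PlusDox HP. In NoDox cells Lamc1 had 43.0 and 57.3 FPKM in HE1, 33.8 and 39.0 FPKM in HE2 and 23.5 and 19.9 FPKM in HP. It was called from HE1 to HE2 with doxycycline (−0.96 ± 0.20) and from HE2 to HP without it (−0.72 ± 0.20). The summed FPKM of Lama4 and Lama5 over that of Lamc1 was 1.37 and 1.33 in PlusDox HE1, 1.32 and 1.34 in PlusDox HE2 and 0.470 and 0.489 in PlusDox HP. In NoDox cells it was 1.26 and 1.27 in HE1, 0.695 and 0.878 in HE2 and 0.264 and 0.294 in HP. Both HP groups and NoDox HE2 thus had more gamma1 than summed alpha4 and alpha5 RNA. This ratio was below 0.5 in the 4 HP libraries alone, and was higher with than without doxycycline in each population. Of the alpha chains outside that sum, Lama1 was low (0.208 to 4.77 FPKM), as was Lama3 (0 to 1.02 FPKM). Lama1 was called lower in HE2 than in HE1 with doxycycline (0.518 ± 0.213 against 2.28 ± 1.3 FPKM, SD) and without it (1.42 ± 0.13 against 4.21 ± 0.79 FPKM, SD).

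Fibronectin, SPARC and tenascin C are found outside the basement membrane sheet as well. Fn1, fibronectin, had the highest mean level of the set, at 1207 and 592 FPKM in PlusDox HE1, 759 and 438 FPKM in PlusDox HE2 and 222 and 135 FPKM in PlusDox HP. In NoDox cells Fn1 was at 613 and 646 FPKM in HE1, 506 and 474 FPKM in HE2 and 99.9 and 53.5 FPKM in HP. HE1 and HE2 overlapped with doxycycline, HP lay under both, and only the step from HE2 to HP was called (−1.73 ± 0.39 with and −2.73 ± 0.39 without doxycycline). Sparc, which encodes a collagen-binding secreted protein, had 273 and 260 FPKM in PlusDox HE1, 127 and 307 FPKM in PlusDox HE2 and 55.3 and 59.1 FPKM in PlusDox HP. In NoDox cells Sparc had 242 and 336 FPKM in HE1, 117 and 359 FPKM in HE2 and 50.7 and 60.7 FPKM in HP. The replicates of HE2 stood far apart in both conditions. Sparc was called from HE2 to HP (−1.77 ± 0.46 with and −1.87 ± 0.46 without doxycycline) and not from HE1 to HE2 (−0.43 ± 0.46 and −0.47 ± 0.46). Tnc, tenascin C, had the largest step from HE1 to HE2 among the 31 genes, with 7.26 ± 0.19 against 33.3 ± 6.4 FPKM with doxycycline (log2 −2.04 ± 0.34, adjusted p = 0.00355) and 9.91 ± 5.21 against 56.9 ± 15.6 FPKM without (log2 −2.47 ± 0.34, adjusted p = 0.00121; limma, SD, n = 2 each). It was called again from HE2 to HP, at 2.06 ± 0.82 FPKM in PlusDox HP and 1.17 ± 0.58 FPKM in NoDox HP.

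The fibrillar collagens were low, and their calls differed from gene to gene. Col5a2 was called lower in HP than in HE2 in both conditions (0.843 ± 0.034 against 5.93 ± 0.19 FPKM with doxycycline, 0.402 ± 0.077 against 4.86 ± 1.48 FPKM without) and in HE2 against HE1 without doxycycline. Its partner chain Col5a1 was called once, in PlusDox HE2 against PlusDox HE1 (4.16 ± 0.43 against 8.61 ± 0.12 FPKM). Col1a1, the alpha1 chain of collagen I, was also called in that comparison only (2.42 ± 0.58 against 7.00 ± 0.89 FPKM). Col1a2, its alpha2 chain, was not called at any step and stood at 9.49 and 9.03 FPKM in PlusDox HP and 11.4 and 12.6 FPKM in NoDox HP, against 4.44 to 11.6 FPKM in the 8 HE libraries. Col3a1 and Col27a1 did not exceed 2.42 and 1.29 FPKM and were called in no comparison. Of the other low genes, Col6a1, Col12a1, Col20a1 and Col23a1 did not exceed 1.94, 1.51, 1.88 and 4.78 FPKM and were not called either. Col11a1 and Col8a1 were called lower in PlusDox HP than in PlusDox HE2 (0.730 ± 0.004 against 1.70 ± 0.18 FPKM and 0.438 ± 0.421 against 1.33 ± 0.02 FPKM, SD). Both reached 1 FPKM in PlusDox HE libraries only, so the filter itself favoured such a fall. Counting all 31 tested genes, 19 with doxycycline and 20 without had both HE1 libraries above both HE2 libraries and these above both HP libraries, and 16 did so in both conditions. Of all tested genes 10.1%, 12.8% and 7.13% did so with doxycycline, without it and in both. The 54 calls of the 31 genes in all comparisons comprised 51 at these steps, all lower, and 3 with doxycycline, all higher.

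**Figure D3:**
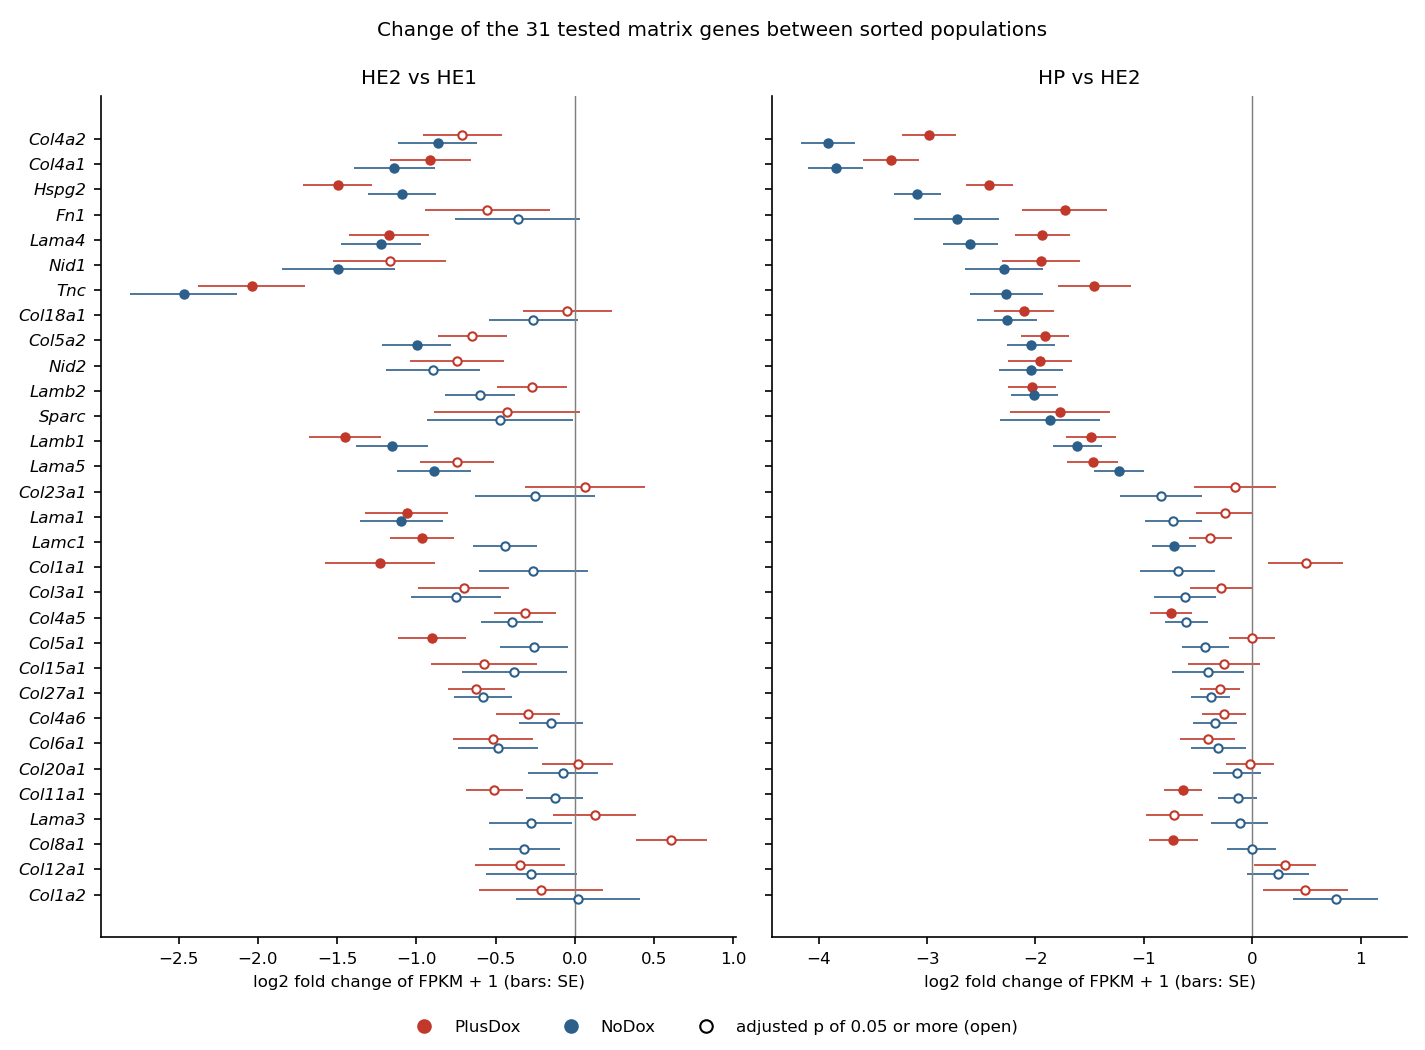
Log2 fold change of FPKM + 1 (x axis, bars are SE) of the 31 tested genes (y axis) in HE2 against HE1 (left) and HP against HE2 (right), with doxycycline in red and without in blue; filled points passed an adjusted p of 0.05 in limma. Col4a2 (−2.98 with, −3.91 without doxycycline) and Col4a1 (−3.33 and −3.85) lie farthest to the left in the HP panel, Tnc (−2.04 and −2.47) in the HE2 panel, and every filled point is below 0.

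All 16 endothelial markers were detected, and 16 of 16 were called lower in HP than in HE2, with doxycycline and without it. Of all tested genes, 10.9% and 10.6% were called lower there. In HE2 against HE1, 1 of 16 was called lower with doxycycline (median log2 fold change −0.30) and 7 of 16 without it (median −1.004), where 2.89% and 4.45% of all genes were. The summed level of the 16 endothelial markers was 2494 to 2932 FPKM in PlusDox HE1, 2311 to 2389 FPKM in PlusDox HE2 and 350 to 459 FPKM in PlusDox HP. In NoDox cells it was 2443 to 3271 FPKM in HE1, 1246 to 1897 FPKM in HE2 and 185 to 211 FPKM in HP. The 16 haematopoietic markers summed to 58.2 to 96.0 FPKM in the HE1 libraries, 310 to 482 FPKM in HE2 and 639 to 832 FPKM in HP, which goes with the labels. The 16 mesenchymal and smooth muscle markers, of which 8 were tested and Dpt was at 0 in every library, summed to 249 to 319 FPKM in PlusDox HE1 and 132 to 209 FPKM in NoDox HE1, and to 32.2 to 99.2 FPKM in HE2 and HP. Acta2 and Tagln held most of these sums. The 16 endoderm markers, of which 6 were tested and Hnf4a was at 0 in every library, summed to 62.8 to 91.8 FPKM in HE1, 39.8 to 47.3 FPKM in HE2 and 11.1 to 15.9 FPKM in HP. Dab2, Gata4, Gata6 and Sox17 held most of the HE1 sums, while Foxa2, Afp and Ttr stayed below 1 FPKM in every library. The part of endothelial, mesenchymal or endoderm cells in the steps of the matrix genes was not tested.

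With doxycycline, 2 low collagens were called higher, and none of the 12 genes with the highest mean level was called. Both collagens reached 1 FPKM in PlusDox libraries only, Col11a1 in 4 (HE1 and HE2) and Col8a1 in 2 (HE2). They thus passed the filter for testing only through groups in which they were high. In HE1, 1 of the 31 genes was called, Col11a1, where 1.37% of all genes were called. In HE2, 2 of 31 were called, Col11a1 and Col8a1, where 6.06% of all genes were. In HP none of the 31 was called by limma, with 7 at an unadjusted p below 0.05, where 0.834% of all genes were called and 1250 of 13316 had an unadjusted p below 0.05. A share of 1 or 2 genes in 31 (3.23% and 6.45%) is close to these backgrounds. With a library class term in the fit, 6 genes were called in HE2, 4 higher and 2 lower (Col11a1, Col18a1, Col1a1, Col5a1, Lama5 and Lamb2), and 1 in HP, higher (Fn1). The background rose as well, as that fit called 1254 of all 13316 genes in HE2 and 175 in HP.

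Col11a1 encodes the alpha1 chain of collagen XI, a minor fibrillar collagen best known from cartilage (chromosome 3, 114030479 to 114220756, mm10). In HE1 it was at 3.18 and 2.51 FPKM with doxycycline and 0.508 and 0.389 FPKM without, and in HE2 at 1.57 and 1.82 FPKM with and 0.313 and 0.340 FPKM without. In HP it was at 0.733 and 0.728 FPKM with doxycycline and 0.207 and 0.212 FPKM without. PlusDox libraries were above NoDox libraries in all 3 populations with no overlap, at levels that stayed low throughout. The log2 fold change on the FPKM + 1 scale was 1.40 ± 0.18 in HE1 (adjusted p = 0.00345), 1.02 ± 0.18 in HE2 (adjusted p = 0.00666) and 0.52 ± 0.18 in HP (adjusted p = 0.295), by limma. The pseudocount of 1 understates such folds, which were 2.42 in HE1 and 2.07 in HE2 with a pseudocount of 0.1. The differences between these effects were not called (HP minus HE1 −0.89 ± 0.25, adjusted p = 0.349). Within library class the HE1 fold was 1.59 in the low-Lars2 pair and 1.22 in the high-Lars2 pair, and in HE2 0.96 between the low-class libraries, where the high class had no NoDox library. The 16 mesenchymal and smooth muscle markers summed to 249 to 319 FPKM in PlusDox HE1 against 132 to 209 FPKM in NoDox HE1, with 1 of 8 tested (Rgs5) called higher. In HE2 the sums were 57.4 to 99.2 FPKM with and 58.7 to 90.2 FPKM without doxycycline, with 1 of 8 (Pdgfrb) called lower. Pdgfrb had 0.809 and 0.501 FPKM in PlusDox HE2 against 4.27 and 1.90 FPKM in NoDox HE2. Of all genes, 1.37% were called in HE1 and 6.06% in HE2, in either direction. Acta2 and Tagln held most of these sums. The part of the 16 markers in the Col11a1 values was not tested. The HE1 call was lost without NoDox HE1 replicate 1 (adjusted p = 0.0561), and the HE2 call without PlusDox HE2 replicate 2 (0.0709) or NoDox HE2 replicate 1 (0.0630).

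Col8a1, the alpha1 chain of the short-chain collagen VIII known from vessel walls and the corneal endothelium, was called in HE2 alone (chromosome 16, 57624256 to 57754737). It stood at 1.34 and 1.31 FPKM in PlusDox HE2 against 0.128 and 0.384 FPKM in NoDox HE2 (log2 0.90 ± 0.23, adjusted p = 0.0383, limma). In HE1 it was at 0.550 and 0.503 FPKM with doxycycline and 0.511 and 0.605 FPKM without, and in HP at 0.140 and 0.736 FPKM with and 0.126 and 0.375 FPKM without. The groups overlapped in HE1 and in HP. The difference of the HE2 effect from the HE1 effect was 0.93 ± 0.32 (adjusted p = 0.509), which was not called. The call was lost without any 1 of 5 libraries: PlusDox HE2 replicate 1 (adjusted p = 0.0998), PlusDox HE2 replicate 2 (0.181), NoDox HE2 replicate 1 (0.269), NoDox HE1 replicate 1 (0.0574) and NoDox HE1 replicate 2 (0.0572). It was also lost with a library class term (0.0513), with a pseudocount of 0.1 (0.0903) and with no filter on low values (0.0692). In the 7 libraries low in Lars2, with 1 PlusDox HE2 library, the log2 fold change was 0.91.

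Lama5, the alpha5 laminin chain, was the only other tested gene whose PlusDox libraries were above the NoDox libraries in all 3 populations. It is named here after its values were seen. Such a pattern held for 2 of the 31 genes, Col11a1 and Lama5, and for 5.05% of all genes tested. At the steps it was called lower from HE2 to HP in both conditions and from HE1 to HE2 without doxycycline. Lama5 had 40.3 and 26.4 FPKM in PlusDox HE1 against 19.0 and 22.3 FPKM in NoDox HE1, and 22.5 and 16.1 FPKM in PlusDox HE2 against 10.4 and 10.9 FPKM in NoDox HE2. In HP it had 7.01 and 5.52 FPKM with doxycycline and 4.18 and 3.76 FPKM without. The log2 fold changes of 0.64 ± 0.23, 0.78 ± 0.23 and 0.54 ± 0.23 in HE1, HE2 and HP did not pass (adjusted p = 0.308, 0.0681 and 0.481, limma). The beta2 chain Lamb2 differed by 0.38 ± 0.22, 0.71 ± 0.22 and 0.69 ± 0.22 (adjusted p = 0.700, 0.0795 and 0.241). The ratio of Lama4 to Lama5 was 1.13 and 1.64 in PlusDox HE1 against 1.85 and 2.27 in NoDox HE1. In HE2 it was 0.786 and 1.28 with doxycycline and 1.25 and 2.15 without, and in HP 0.653 and 0.717 with and 0.484 and 0.552 without.

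**Figure D4:**
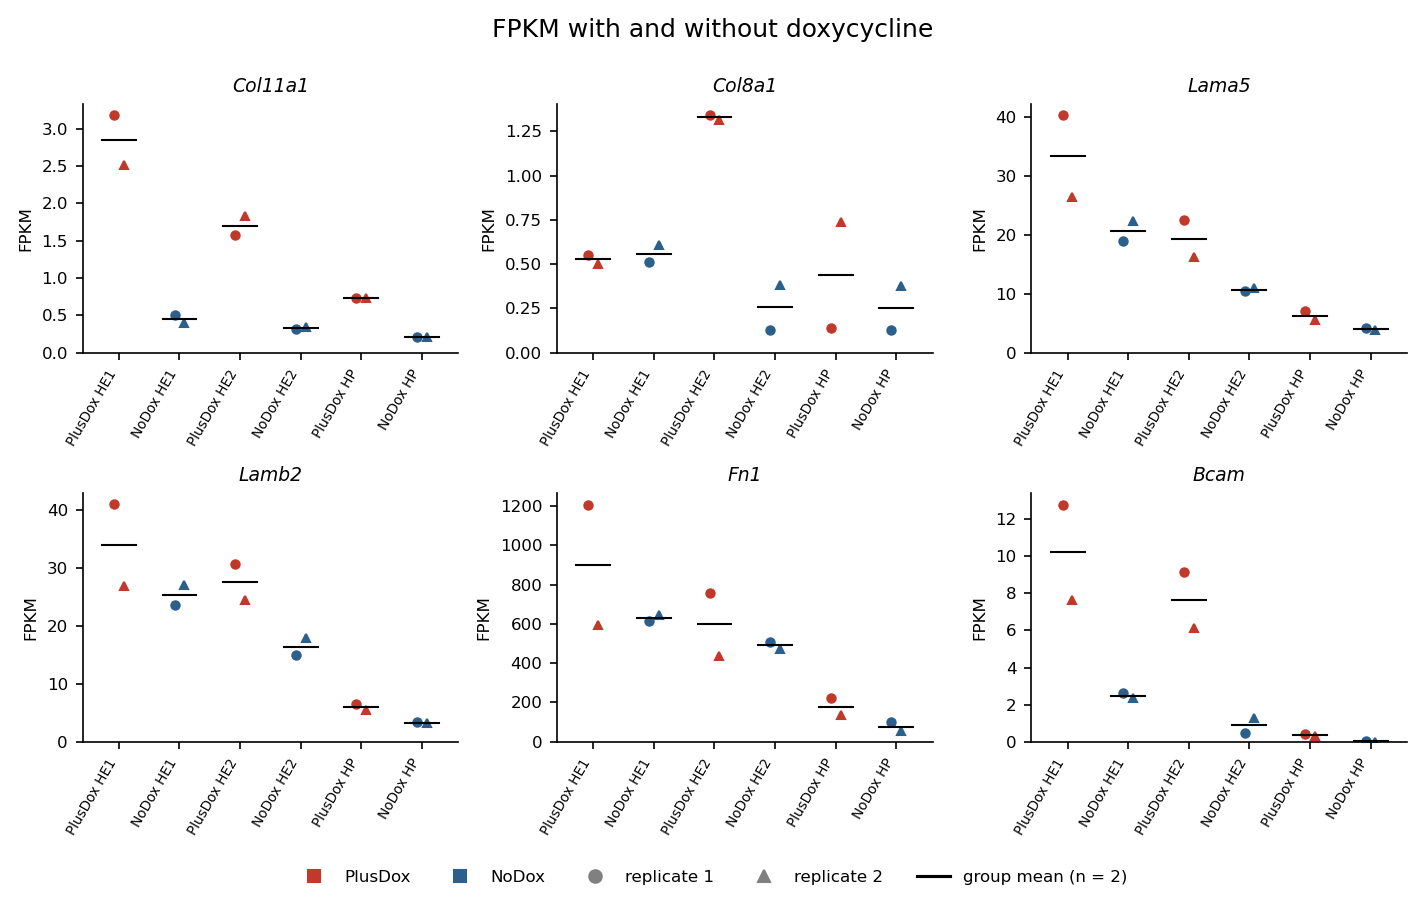
FPKM (linear axis from 0) of 5 matrix genes and the laminin receptor gene Bcam in the 6 groups; circles are replicate 1, triangles replicate 2 and bars group means of 2. PlusDox Col11a1 points (3.18 and 2.51 in HE1, 1.57 and 1.82 in HE2, 0.733 and 0.728 in HP) lie above the NoDox points of the same population, and Col8a1 separates in HE2 alone.

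In HP most matrix genes leaned upwards with doxycycline without being called. Of the 31 genes, 25 had a positive fold change in PlusDox HP against NoDox HP, with a median of 0.18 beside −0.003 over all genes. In 14 of 31 both PlusDox HP libraries exceeded both NoDox HP libraries, where 20.5% of all genes showed that, and in 3 both were below, where 13.2% did. The largest differences were those of Fn1 (1.23 ± 0.39, adjusted p = 0.241), Col4a2 (0.85 ± 0.25, adjusted p = 0.196), Lama4 (0.79 ± 0.25, adjusted p = 0.249) and Col4a1 (0.75 ± 0.25, adjusted p = 0.283), all in limma. The endothelial markers moved the same way, with 4 of 16 called higher in PlusDox HP and a median of 0.80, where 0.834% of all genes were called in either direction. The summed levels of these markers were 350 to 459 FPKM in PlusDox HP against 185 to 211 FPKM in NoDox HP. Their part in the matrix values of HP was not tested. In HE1 the median of the 31 genes was 0.01 and in HE2 −0.03, beside −0.07 and −0.05 over all genes. Both PlusDox libraries were higher for 2 of 31 genes in HE1 (13.6% of all genes) and 7 in HE2 (22.3%), and lower for 5 (22%) and 5 (28%). The tests of whether the doxycycline effect differed between populations called none of the 31 genes. Of all genes, limma called 0.0451% for HE2 minus HE1, 0.015% for HP minus HE2 and 0.0375% for HP minus HE1. At an unadjusted p below 0.05 there were 1, 3 and 3 of the 31 genes in that order, beside 891, 875 and 869 of all 13316 genes.

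The machinery around the matrix was read from 4 further lists, and the values of their named genes are log2 fold changes ± SE that passed in the same limma fit. The counts of all 4 lists stand beside these shares of all tested genes. In HP against HE2, 10.9% were called lower and 5.96% higher with doxycycline, and 10.6% and 5.31% without it. For PlusDox against NoDox, 1.37% were called in HE1, 6.06% in HE2 and 0.834% in HP, in either direction. Of 30 tested collagen-modifying enzymes, 14 were called lower and 1 higher in PlusDox HP against PlusDox HE2, and 18 lower and 0 higher in NoDox HP against NoDox HE2. They included Pxdn, the peroxidase that cross-links collagen IV (−2.26 ± 0.23 with and −2.43 ± 0.23 without doxycycline), Bmp1, a procollagen C-proteinase (−1.74 ± 0.25 and −2.22 ± 0.25), and Tgm2, a cross-linking transglutaminase (−1.65 ± 0.27 and −2.18 ± 0.27). With doxycycline, P4ha3, a prolyl hydroxylase subunit, rose in HE1 (1.06 ± 0.22), P3h2 and the lysyl hydroxylase Plod1 rose in HE2 (0.93 ± 0.21 and 0.88 ± 0.23), and Adamts3, a procollagen N-proteinase, fell in HE2 (−1.20 ± 0.30). P4ha3 reached 1 FPKM in the PlusDox HE1 libraries only, and so passed the filter for testing only through the group where it was high.

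Of 29 tested other matrix proteins, 10 were called lower and 4 higher in PlusDox HP against PlusDox HE2, and 7 lower and 4 higher in NoDox HP against NoDox HE2. The fibrillins Fbn1 (−3.64 ± 0.32 with and −4.03 ± 0.32 without doxycycline) and Fbn2 (−2.88 ± 0.36 and −3.59 ± 0.36) and the endothelial glycoprotein gene Mmrn2 (−4.09 ± 0.32 and −3.81 ± 0.32) fell. Spp1, osteopontin, rose (2.52 ± 0.45 and 2.15 ± 0.45), as did Emilin2 (2.19 ± 0.23 and 2.04 ± 0.23) and Thbs1, thrombospondin 1 (1.95 ± 0.38 and 1.64 ± 0.38). With doxycycline, Vcan, the proteoglycan versican, fell to 9.25 and 8.06 FPKM in PlusDox HE1, against 19.1 and 19.5 FPKM in NoDox HE1 (log2 −1.07 ± 0.19, adjusted p = 0.0187). Vcan fell likewise to 7.71 and 8.78 FPKM in PlusDox HE2, against 19.7 and 25.9 FPKM in NoDox HE2 (−1.35 ± 0.19, adjusted p = 0.00240). Ltbp4 and Fbln2 rose in PlusDox HE1 (1.50 ± 0.24 and 1.17 ± 0.23), and Emilin1 fell in PlusDox HE2 (−1.22 ± 0.28). Ltbp4 reached 1 FPKM in PlusDox HE1 and HE2 libraries only, and so passed the filter only through groups with doxycycline.

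Of 23 tested matrix receptors, Bcam, whose product binds laminin alpha5, showed the largest called rise with doxycycline. Bcam stood at 12.8 and 7.67 FPKM in PlusDox HE1 against 2.62 and 2.37 FPKM in NoDox HE1 (log2 1.65 ± 0.27, adjusted p = 0.0130, limma), and at 9.16 and 6.12 FPKM in PlusDox HE2 against 0.495 and 1.27 FPKM in NoDox HE2 (2.21 ± 0.27, adjusted p = 0.00122). In HP it was at 0.441 and 0.306 FPKM with doxycycline, against 0.0640 FPKM and a listed 0 without. Cd44, a hyaluronan receptor, and the integrin gene Itga4 rose in PlusDox HE2 (1.17 ± 0.30 and 1.13 ± 0.25), and Itgb3 fell there (−0.78 ± 0.19). In HP against HE2, 9 receptors were called lower and 3 higher with doxycycline and 7 lower and 4 higher without. Itga1, a chain of a collagen- and laminin-binding integrin, fell (−2.50 ± 0.44 with and −2.70 ± 0.44 without doxycycline), while the collagen receptor genes of blood cells Lair1 (1.45 ± 0.19 and 1.54 ± 0.19) and Gp6 (1.08 ± 0.31 and 1.46 ± 0.31) rose. Lair1 and Gp6 reached 1 FPKM in HP libraries only, and so passed the filter only through the population where they were high. Of 21 tested proteases and inhibitors, 10 were called lower and 1 higher in PlusDox HP against PlusDox HE2, and 9 lower and 1 higher in NoDox HP against NoDox HE2. Mmp2, a gelatinase that cleaves collagen IV, fell (−2.14 ± 0.26 and −2.68 ± 0.26), and Mmp23 was the only called gene of this list with doxycycline, higher in HE1 (1.25 ± 0.20) and in HE2 (1.21 ± 0.20). Among NoDox libraries Mmp23 reached 1 FPKM in HP replicate 2 alone (1.325 FPKM), so its place among the tested genes rested on PlusDox libraries. None of the 4 lists had a call with doxycycline in HP.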

How the data were processed

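RNA of 12 sorted-cell libraries was sequenced from stranded total RNA kits. The submitters' processing notes list Trimmomatic 0.32, HISAT2 2.1.0, StringTie 1.3.3 and the build mm10; the annotation and the strand setting are not given in these notes or labels. The deposited values were read as FPKM, an inference from the tool and from sums of 468326 to 579055 per library, and no read counts were used. Repeated names (2 to 4 a file) were added. Genes with FPKM of at least 1 in at least 2 libraries (13316) were fitted on log2(FPKM + 1) with limma 3.58.1 in R 4.3.3, with 6 group means over 12 libraries, an intensity trend, 6 residual and 5.83 prior degrees of freedom, and two-sided p-values adjusted by Benjamini-Hochberg per comparison. The spread is thus pooled over the groups, and the labels describe the biological replicates no further. Values in every library were given for genes called with doxycycline and for the 12 genes with the highest mean. The genes, lists and tests were chosen with earlier results of these data known. Alternatives were another pseudocount, no filter, quantile and median scaling, a library class term, the 7 libraries low in Lars2, a replicate block and leaving out each library. The fit was tested on simulated data. Python 3.11.15 with pandas 2.3.3 and matplotlib 3.10.9 made tables and plots. All 61 genes were matched to RefSeq on GRCm38.p6.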

Additional observations from a re-analysis of the deposited data

How the results depend on the processing

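The direction of all 70 called values (54 of the collagen, laminin and matrix genes and 16 of the 4 further lists with doxycycline) held under every alternative run. The number still called was 56 with a pseudocount of 0.1, 42 with no filter on low values, 67 with quantile normalization, 68 with median scaling, 67 with a library class term, 49 to 64 leaving out 1 library and 9 in the 7 libraries low in Lars2, a fit with 1 residual degree of freedom.

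Of the 31 genes, calls for PlusDox against NoDox HE1 were 2 with quantile and 2 with median scaling (Lama5 added), 0 in the 7 libraries and 0 to 1 leaving out 1 library. For PlusDox against NoDox HE2 they were 1 with the pseudocount of 0.1, 1 without the filter, 5 with quantile and 4 with median scaling (Lama5 and Lamb2 added in both), 6 with the class term, 0 in the 7 libraries and 0 to 4 leaving out 1 library, with 0 without PlusDox HE2 replicate 2 or NoDox HE2 replicate 1 and 4 without either PlusDox HP library. In HP the class term gave 1 (Fn1). Of all 13316 genes, quantile normalization called 351 for PlusDox against NoDox HE1 and 1824 for HE2, and median scaling 308 and 1600. The class term called 1254 of all genes in HE2 and 175 in HP. For HE2 against HE1 without doxycycline they were 5 with no filter, 0 in the 7 libraries and 1 to 10 leaving out 1 library, with 1 left without NoDox HE1 replicate 2 or NoDox HE2 replicate 1. With doxycycline they were 14 with quantile and 14 with median scaling, 0 in the 7 libraries and 3 to 9 leaving out 1 library. There 3 were left without PlusDox HE1 replicate 1 or PlusDox HE2 replicate 1, and 4 without PlusDox HE2 replicate 2. As only NoDox HE2 kept both of its libraries among the 7, calls in that fit cannot compare conditions or sets of genes. The cause of these changes was not tested, beyond the fewer libraries in the reduced fits. For HE2 against HE1 with doxycycline, quantile normalization called 2048 of all 13316 genes and median scaling 1892, in either direction.

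Differences between replicates correlated by number above 0.1 in 12 of 15 pairs of groups (−0.100 to 0.526). Most pairs thus deviated together, but not all, and the labels do not say that a number marks a shared culture, so the main values carry no block. A replicate block gave 6 calls for HE2 (Col1a1, Col5a1, Lama5 and Lamb2 added) and 1 for HP (Fn1) with doxycycline. It gave 14 for HE2 against HE1 with doxycycline, and lost none of the 70. Of all 13316 genes, the block called 2296 for PlusDox against NoDox HE2 and 305 for PlusDox against NoDox HP. For HE2 against HE1 with doxycycline it called 2420 of all genes, in either direction.

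With 2 libraries a group and no counts, differences in genes near 0 FPKM were not resolved. Values scaled to the library total also move with the 3 transcripts that set the Lars2 class.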
